A study of Mus musculus with 6 samples.

Results

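The genes that move calcium in and out of the sarcoplasmic reticulum of cardiac muscle were followed in heart ventricle RNA from 6 mice. The set holds 10 listed genes, *Atp2a2*, *Pln*, *Ryr2*, *Casq2*, *Casq1*, *Trdn*, *Asph*, *Jph2*, *Slc8a1* and *Camk2d*, found by their GENCODE M21 symbols among the 54232 gene identifiers counted. Each of the 10 matched 1 identifier, and each was among the 14133 genes that passed the filter on low counts. All 6 mice were WT animals of strain C57BL/6J kept on WD, a diet rich in fat and sucrose, for 15 weeks before treatment. For the next 3 weeks, 3 mice were given Tributyrin at 5 g/kg body weight by feeding needle, and the other 3 were given vehicle, which the sample labels name PBS. Tributyrin is glycerol that carries butyrate, a short chain fatty acid made by gut bacteria. The comparison asks how the transcripts of calcium cycling in the WD-fed heart differ with Tributyrin. The ages of these mice are not in the sample labels, and mice on a normal diet were not analysed here, so no value below is relative to a healthy heart.

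In each heartbeat a small entry of calcium through the L-type channel opens the ryanodine receptor, which releases stored calcium from the sarcoplasmic reticulum onto the myofilaments. Relaxation follows as the SERCA pump returns calcium to the store and the sodium-calcium exchanger moves the rest out of the cell. Phospholamban holds the pump back until it is phosphorylated, calsequestrin buffers calcium inside the store, and junctophilin keeps the store close to the cell membrane. Slowed calcium return is a known feature of impaired relaxation of the heart.

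The libraries held between 20369746 and 32734485 counts. Vehicle libraries gave 24.7% ± 1.57 (SD, n = 3) of their counts to mitochondrial transcripts, and Tributyrin libraries gave 27.5% ± 1.46 (SD, n = 3). Genes of cardiomyocytes (7 markers) summed to between 54918 and 55894 CPM (counts scaled to a common library size by the TMM method) with vehicle and between 52330 and 57126 with Tributyrin. The tissue thus carried markers of heart muscle, though this sum does not separate ventricle from atrium. Of these 7 markers, 3 had an unadjusted p under 0.05 in edgeR's model across genes, *Tnnt2* with a mean 17.4% higher in Tributyrin, *Tnni3* 15.7% higher and *Actc1* lower (-13.6%), and the groups of *Tnni3* did not overlap. Their part in the values of *Pln* and *Trdn*, which are of like size, was not tested. The 5 adipocyte markers summed to between 299.0 and 313.2 CPM with vehicle and between 330.4 and 434.0 with Tributyrin, without overlap. However, *Adipoq*, *Cfd* and *Ucp1* were below 1 in every library and only 1 of the 5 passed the filter. The sum therefore does not speak for adipocyte markers as a set. Atrial markers (8 genes, of which *Bmp10* was below 1 in every library) summed to 233.3, 219.2 and 96.6 CPM with vehicle and to 68.1, 101.4 and 83.2 with Tributyrin. Both higher sums belonged to vehicle replicates 1 and 2. Of 7 atrial markers tested, 5 had an unadjusted p under 0.05 by edgeR, with a median log2 fold change, Tributyrin over Vehicle, of -1.86. *Sln*, described below, is itself among the atrial markers. At the same threshold there were 2 of 6 fibroblast, 2 of 5 smooth muscle, 0 of 5 endothelial and 0 of 3 leukocyte markers tested. Over all genes tested the share was 4.25%. As this is bulk tissue, fewer cells of a type and less RNA per cell cannot be told apart.

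None of the 10 genes differed between the groups at an FDR of 10% or 5% by the quasi-likelihood test of edgeR, adjusted over all genes tested by the Benjamini-Hochberg method, and the lowest adjusted p among them was 0.999. Over all 14133 genes tested, 0 passed 10% (0% of genes). At an unadjusted p under 0.05 there were 3 of the 10, the pump inhibitor *Pln* and the junctional anchor *Trdn* with higher values in Tributyrin and the skeletal muscle calsequestrin *Casq1* with lower values. The same threshold held 600 genes of all those tested, or 4.25%, with 1.97% higher and 2.28% lower. The other 7 genes had log2 fold changes, Tributyrin over Vehicle, between -0.12 and 0.05. Of the 10, 4 were positive and 6 negative, with a median log2 fold change of -0.05 beside -0.00129 over all genes tested. DESeq2 and limma-voom also called 0 of the 10 at 10%, and over all genes they called 11 and 0.

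**Figure D1:**
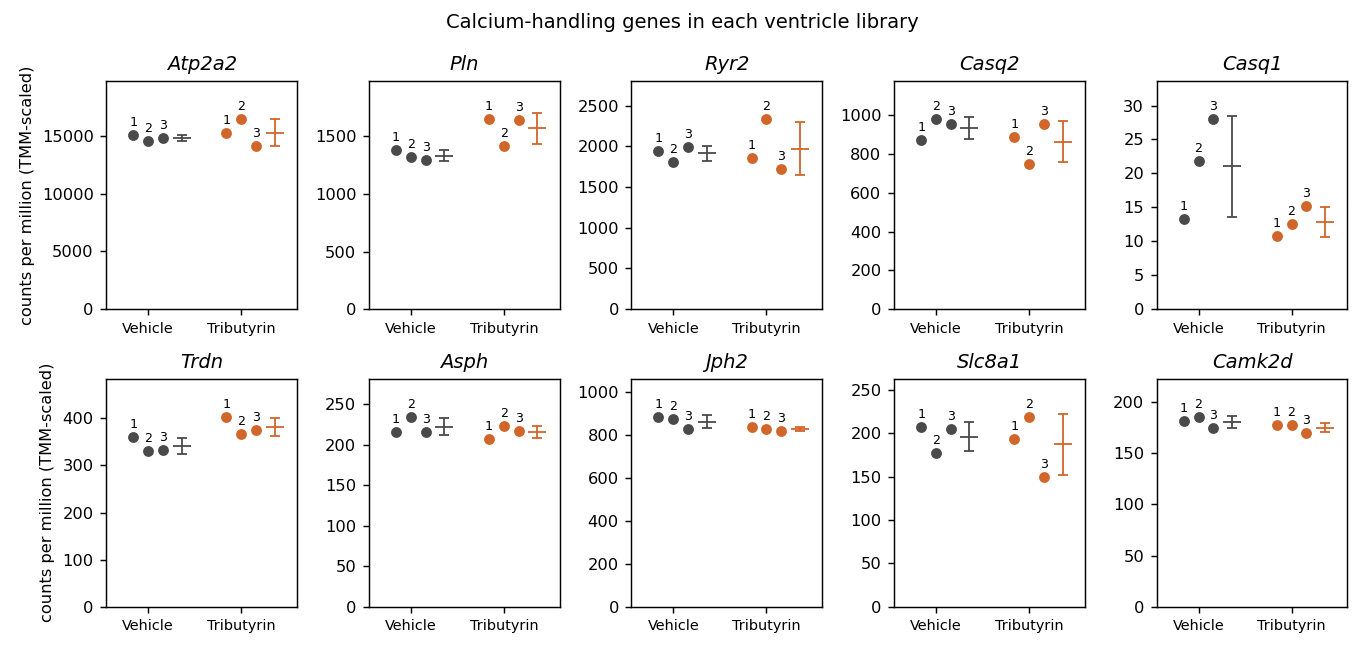
TMM-scaled CPM (vertical axes from 0) of each of the 10 genes in the 3 Vehicle and 3 Tributyrin libraries; numbers are replicates, and the bars beside the points give the mean and SD. All Tributyrin points lie above all Vehicle points for *Pln* and *Trdn*, while the other 8 genes overlap between the groups.

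Phospholamban, the product of *Pln*, is a very short membrane protein, and its message is shown here because it was the pump regulator with the clearest separation between groups. Its coding sequence in transcript ENSMUST00000046221.7 (GRCm38, plus strand, first to last coding base chr10:53343864-53344019) has 159 bases with the stop codon and encodes 52 residues. The capitals mark the codons of serine 16 and threonine 17, the sites at which protein kinase A and CaM kinase II phosphorylate it and so release the pump. Sarcolipin, encoded by *Sln*, is the atrial relative that also inhibits the pump. Its coding sequence in ENSMUST00000048485.6 (GRCm38, plus strand, chr9:53853473-53853565) has 96 bases and encodes 31 residues, with nothing in capitals.
Pln: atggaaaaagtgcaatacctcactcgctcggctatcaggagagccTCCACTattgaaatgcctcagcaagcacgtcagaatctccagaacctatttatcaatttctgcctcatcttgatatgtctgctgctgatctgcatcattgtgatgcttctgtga
Sln: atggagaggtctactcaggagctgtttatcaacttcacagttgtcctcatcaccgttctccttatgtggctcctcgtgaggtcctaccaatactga

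The pump itself was the most abundant of the set. *Atp2a2* (ENSMUSG00000029467, chromosome 5, 122453513 to 122502225 in GRCm38), which encodes SERCA2, had 15066, 14537 and 14841 CPM in the Vehicle libraries and 15232, 16479 and 14151 in the Tributyrin libraries. The groups overlapped, since both the highest and the lowest value were from Tributyrin mice. Its log2 fold change was 0.05 (standard error 0.078, 95% interval from -0.13 to 0.22), and the interval spans a pump message from 0.915 to 1.16 times that of vehicle. At least 313688 reads lay on the gene in each library, so that the spread between mice and not the counting limited this estimate. The SD with Tributyrin was 7.62% of the mean, beside 1.79% with vehicle.

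*Pln* (ENSMUSG00000038583, chromosome 10, 53337667 to 53345987) had 1381, 1321 and 1291 CPM with vehicle and 1650, 1417 and 1646 with Tributyrin. Every Tributyrin library lay above every Vehicle library, with replicate 2 of Tributyrin close to replicate 1 of Vehicle and the other two Tributyrin libraries well above. The mean was 18.0% higher with Tributyrin, and the log2 fold change was 0.24 (standard error 0.079, 95% interval from 0.06 to 0.41, unadjusted p 0.0124 in edgeR's model across genes). By unadjusted p it ranked 142 of all genes tested, and the adjusted p from edgeR was 0.999. Among all genes tested, 4.34% had groups that did not overlap with higher values in Tributyrin. Exons of genes on the opposite strand cover 64.7% of the exonic bases of *Pln*, mostly those of *Gm47644*, which had at most 160 counts in a library. The strand setting of the counting is not known, so reads in that stretch may have been left out.

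Since *Pln* acts by binding the pump, its level relative to *Atp2a2* was also taken within each library, per kb of exon, which does not depend on scaling between libraries. The ratio was 0.202, 0.200 and 0.192 with vehicle and 0.239, 0.189 and 0.256 with Tributyrin. Tributyrin replicate 2, in which *Atp2a2* was highest, had the lowest ratio of the 6 libraries, and the groups overlapped. The mean log2 ratio was 0.19 higher with Tributyrin (standard error 0.134, two-sided exact permutation test, p = 0.4, Benjamini-Hochberg adjusted p = 0.6 over 6 ratios, smallest p possible 0.1). With any 1 library left out the difference of the mean log2 ratio lay between 0.10 and 0.32. If reads of *Pln* under opposite-strand exons were left out, the ratio reads too low in each library.

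*Sln* is an atrial transcript and was scarce in this tissue, with 12.4, 6.80 and 0.237 CPM in the Vehicle libraries and 1.71, 1.64 and 0.740 in the Tributyrin libraries. The counts themselves were 315, 231 and 5 with vehicle and 48, 47 and 17 with Tributyrin. Vehicle replicates 1 and 2 were high and Vehicle replicate 3 was the lowest of all, the same pair of Vehicle libraries that held the most atrial transcripts. The log2 fold change was -2.24 (standard error 0.80, unadjusted p 0.0181, adjusted p 0.999 by edgeR). It turned to 2.52 when both those Vehicle libraries were left out, a setting added after the data were seen. Only Vehicle replicate 3, the library lowest in *Sln*, then stands for its group, so the turn follows from the choice. Without vehicle replicate 3 the log2 fold change was -2.78 with an adjusted p of 0.0975 by edgeR. Without vehicle replicate 1 it was -1.42. By limma-voom it was -1.35 (unadjusted p 0.313 across genes), and the unadjusted p by DESeq2 was 0.0707. The ratio of *Sln* to *Atp2a2* per kb was 0.00381 at the most, against 0.202 for *Pln* in the same library.

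The release channel and its partners came next in the cycle. *Ryr2* (ENSMUSG00000021313, chromosome 13, 11553102 to 12106945), the cardiac ryanodine receptor, had 1943, 1813 and 1988 CPM with vehicle and 1856, 2336 and 1721 with Tributyrin. Tributyrin replicates 2 and 3 were the highest and the lowest of the 6, and the SD was 16.4% of the mean with Tributyrin against 4.74% with vehicle. The log2 fold change was 0.04 (standard error 0.107, 95% interval from -0.20 to 0.28). Its sign depended on single libraries, at -0.10 without tributyrin replicate 2 and 0.13 without tributyrin replicate 3.

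*Trdn* (ENSMUSG00000019787, chromosome 10, 33080554 to 33476709) encodes triadin, which ties calsequestrin to the ryanodine receptor. It had 360.3, 330.4 and 332.1 CPM with vehicle and 403.3, 366.6 and 374.8 with Tributyrin, and the groups did not overlap. The mean was 11.9% higher, and the log2 fold change was 0.16 (standard error 0.071, 95% interval from 0.00 to 0.32, unadjusted p 0.0459, adjusted p 0.999 by edgeR). Relative to *Ryr2* per kb, *Trdn* stood at 0.571, 0.561 and 0.514 with vehicle and at 0.669, 0.483 and 0.670 with Tributyrin (two-sided exact permutation test, p = 0.4, adjusted p = 0.6). Again Tributyrin replicate 2 had the lowest ratio and the other 2 Tributyrin libraries the highest. *Ryr2* was itself highest in Tributyrin replicate 2, and the ratios were not recomputed with a trend on exon length removed.

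*Asph*, whose locus encodes junctin, a partner of triadin, as well as the aspartyl hydroxylase, had 215.6, 234.2 and 216.0 CPM with vehicle and 207.2, 222.3 and 216.6 with Tributyrin. The values of the groups overlapped, and the log2 fold change was -0.04 (standard error 0.069). Counts per gene do not separate junctin from the other products of the locus. Exons of *Clvs1*, which had at most 16 counts in a library, overlap *Asph* on the opposite strand. As the strand setting of the counting is not known, reads in that stretch may have been left out.

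Both calsequestrins were measured. *Casq2* (ENSMUSG00000027861, chromosome 3, 102086415 to 102146514), the cardiac form, had 871.7, 981.5 and 955.3 CPM with vehicle and 890.6, 747.0 and 954.8 with Tributyrin. Tributyrin replicate 2 stood below the other 5 libraries. The log2 fold change was -0.12 (standard error 0.095, 95% interval from -0.33 to 0.10), and without tributyrin replicate 2 it was -0.02. The ratio of *Casq2* to *Ryr2* per kb ran from 4.72 to 5.70 with vehicle and from 3.37 to 5.84 with Tributyrin (two-sided exact permutation test, p = 0.8).

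*Casq1* (ENSMUSG00000007122, chromosome 1, 172209894 to 172219868), the skeletal muscle form, was a minor transcript at 13.3, 21.8 and 28.01 CPM with vehicle and 10.7, 12.6 and 15.2 with Tributyrin. Vehicle replicates 2 and 3 lay above all Tributyrin libraries, while Vehicle replicate 1 lay among them, so the groups overlapped. The mean was 38.9% lower with Tributyrin. The log2 fold change was -0.71 (standard error 0.230, 95% interval from -1.22 to -0.20, unadjusted p 0.0111, rank 134, adjusted p 0.999 by edgeR), the largest difference of the set in size. Between 301 and 740 reads lay on *Casq1* in a library. Vehicle replicate 3 carried much of the difference, and without it the log2 fold change was -0.46. Against that library alone, without vehicle replicates 1 and 2, it was -1.13. *Casq1* passed the FDR of 10% with edgeR when no filter on low counts was used (log2 fold change -0.71, adjusted p 1.9e-06), and DESeq2 gave an adjusted p of 0.374. That edgeR fit without the filter called 167 of all genes, beside 0 in the main fit. It also gave an adjusted p of 1.1e-24 to *Sln*, whose Vehicle counts ran from 5 to 315. Its adjusted p for *Casq1*, whose groups overlapped, is therefore not taken as support for a difference.

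As *Casq1* is a skeletal muscle gene, skeletal muscle markers were read beside it. Of 13, 9 were below 1 CPM in every library, among them the fast myosins *Myh1*, *Myh2* and *Myh4*, the skeletal pump *Atp2a1* and the skeletal release channel *Ryr1*. The sum of the 13 ran from 25.5 to 29.01 CPM with vehicle and from 25.9 to 30.5 with Tributyrin. With 9 of 13 below 1, this sum does not speak for skeletal muscle markers as a set. Of the 6 tested, 0 had an unadjusted p under 0.05 by edgeR. Relative to *Casq2* per kb, *Casq1* was at 0.0214, 0.0311 and 0.0411 with vehicle and at 0.0169, 0.0236 and 0.0224 with Tributyrin (two-sided exact permutation test, p = 0.3, adjusted p = 0.6). Vehicle replicate 1 again lay within the Tributyrin range.

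**Figure D2:**
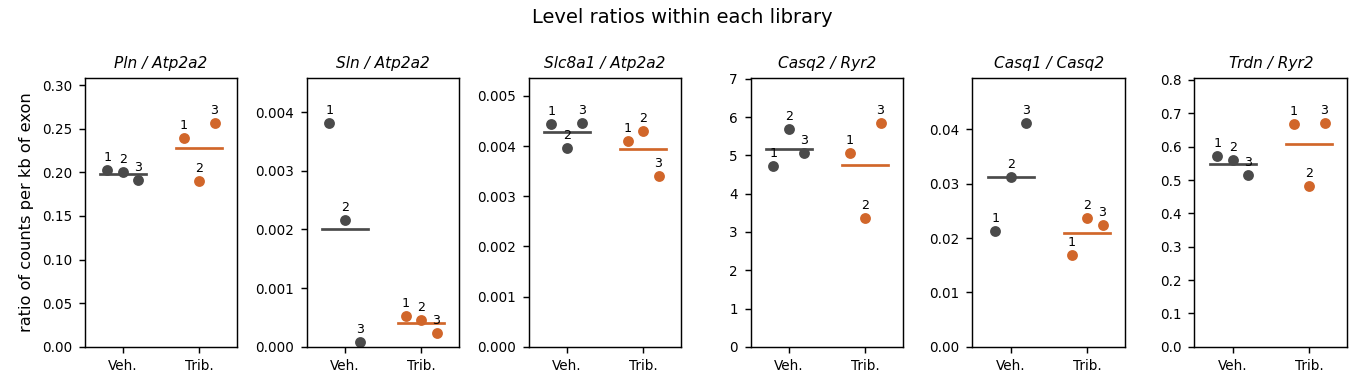
Ratios of counts per kb of exon between 2 genes of the same library (vertical axes from 0) for the 3 Vehicle and 3 Tributyrin libraries; numbers are replicates and lines are means. The groups overlap in each of the 6 ratios, and Tributyrin replicate 2 is the lowest of all libraries for *Pln* to *Atp2a2*, *Casq2* to *Ryr2* and *Trdn* to *Ryr2*. The ratios to *Ryr2* share that gene, which was itself highest in Tributyrin replicate 2.

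The remaining genes act around the junction and in removing or sensing calcium. *Jph2*, encoding junctophilin 2, which bridges the store and the cell membrane, had 886.7, 873.9 and 830.9 CPM with vehicle and 840.1, 829.9 and 818.4 with Tributyrin. The values were close together and overlapped, and the log2 fold change was -0.06 (standard error 0.065). *Camk2d*, the main cardiac CaM kinase II, had 181.6, 185.6 and 174.3 CPM with vehicle and 177.5, 177.1 and 169.6 with Tributyrin. Its groups overlapped too, and its log2 fold change of -0.05 (standard error 0.066, 95% interval from -0.19 to 0.10) was among the most tightly estimated.

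*Slc8a1* (ENSMUSG00000054640, chromosome 17, 81373105 to 81738377), the sodium-calcium exchanger, had 207.1, 177.8 and 204.6 CPM with vehicle and 193.5, 219.3 and 149.3 with Tributyrin. Tributyrin replicate 2 was the highest and Tributyrin replicate 3 the lowest of the 6 libraries. The log2 fold change was -0.07 (standard error 0.126, 95% interval from -0.35 to 0.21), at -0.20 without tributyrin replicate 2 and 0.07 without tributyrin replicate 3. Its ratio to *Atp2a2*, the 2 routes of calcium removal side by side, overlapped between the groups (two-sided exact permutation test, p = 0.5, adjusted p = 0.6).

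**Figure D3:**
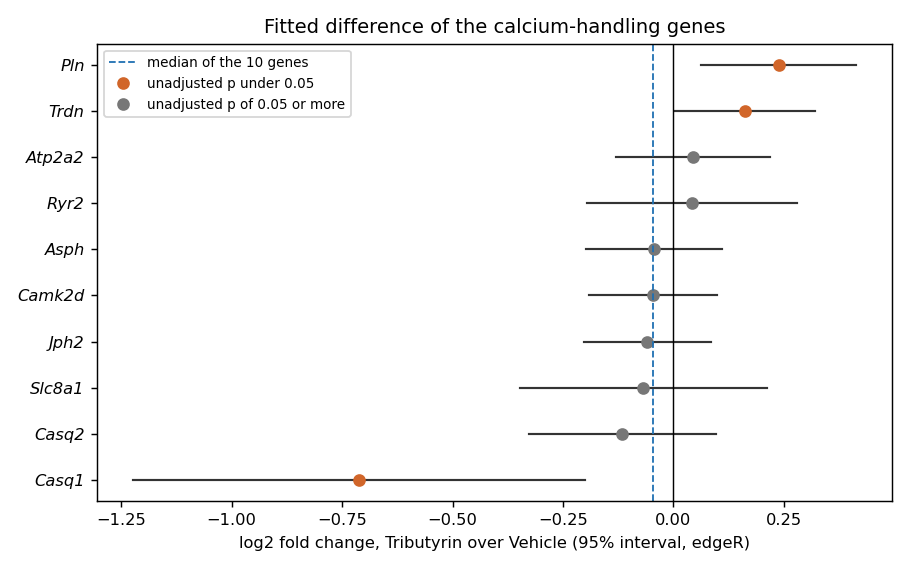
Log2 fold change (horizontal axis, Tributyrin over Vehicle, edgeR) of each of the 10 genes with its 95% interval; the dashed line is their median of -0.05. The intervals of *Pln*, *Trdn* and *Casq1* leave out 0 before adjustment for the number of genes tested, and the interval of *Casq1* is the widest.

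Among all genes tested, 4.34% had non-overlapping groups with higher values in Tributyrin and 4.61% with lower values. Of the 10 calcium genes, 2 were of the first kind and 0 of the second. Both shares rest on 10 genes measured in the same 6 libraries.

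*Atp2a2*, *Ryr2* and *Slc8a1* were each highest in Tributyrin replicate 2 and lowest in Tributyrin replicate 3. Tributyrin replicate 3 was the lowest library for 5 of the 10 genes and the highest for 0. In the same libraries the balance between long and short transcripts differed. Genes with more than 10 kb of exon (1353 genes) deviated from their own means by more than genes with less than 2 kb (2161 genes) by 0.05, 0.01 and 0.09 on the log2 scale in the Vehicle libraries. In the Tributyrin libraries this difference was -0.05, 0.13 and -0.24. *Ryr2* has 28790 bases of exon and *Slc8a1* has 18807, whereas *Atp2a2* has 6081 and 2 other genes over 10 kb, *Camk2d* with 22493 and *Asph* with 16102, showed little of this pattern. With a trend on exon length removed in each library, a setting added after the data were seen, the log2 fold change was 0.10 for *Ryr2*, -0.03 for *Slc8a1*, 0.22 for *Pln*, 0.20 for *Trdn* and -0.75 for *Casq1*. What sets the balance of long and short transcripts was not tested.

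**Figure D4:**
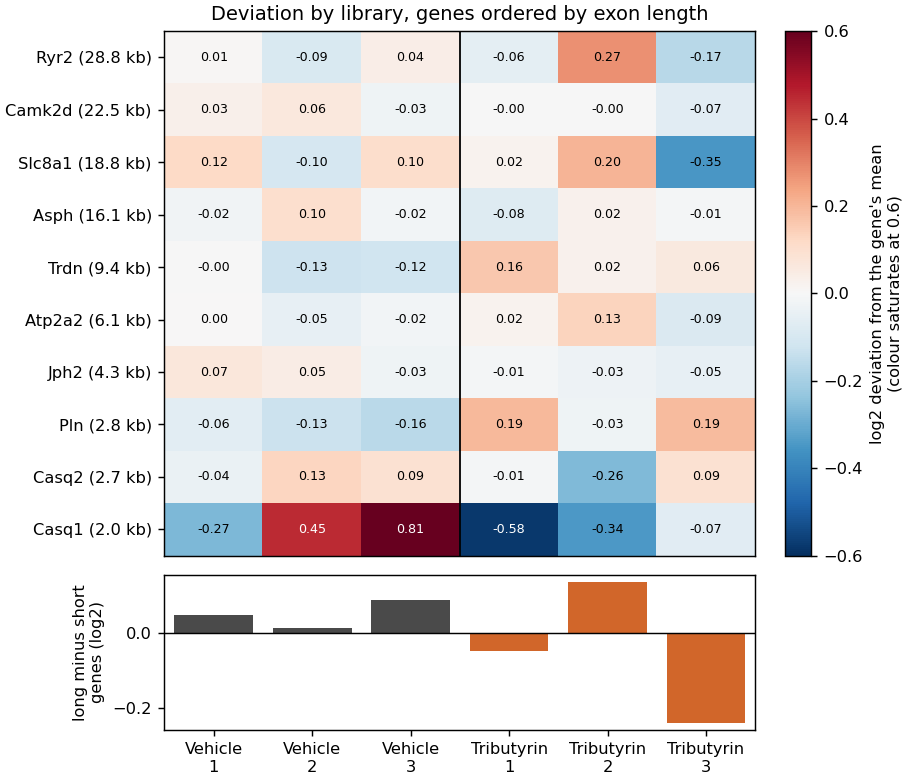
Upper panel, log2 deviation of each gene from its mean over the 6 libraries (red above, blue below, genes from longest to shortest exon length); lower panel, median log2 deviation of genes with over 10 kb of exon minus that of genes under 2 kb. Tributyrin replicate 2 is high and Tributyrin replicate 3 low both in the lower panel (0.13 and -0.24) and for *Ryr2* and *Slc8a1*, but not for *Camk2d* and *Asph*, which are also over 10 kb.

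Per kb of exon the levels of the 10 genes covered more than 2 orders of magnitude. *Atp2a2* led with a median of 2459 CPM per kb over the 6 libraries and was at rank 14 of all genes tested. It was followed by *Pln* at 507.0, *Casq2* at 337.3, *Jph2* at 196.4, *Ryr2* at 66.0, *Trdn* at 38.9 and *Asph* at 13.4. Down to this point the ranges of neighbours did not overlap. *Slc8a1* (10.6), *Camk2d* (7.88) and *Casq1* (7.31) closed the order, and there the ranges of *Slc8a1* and *Casq1* overlapped, as did those of *Casq1* and *Camk2d*. The highest *Casq1* value (14.4, Vehicle replicate 3) also reached the range of *Asph*. Length was taken over all annotated exons of a gene, so genes with long unused exons read low on this scale. *Pln* may also read low, as exons of the opposite strand cover 64.7% of its exonic bases and the strand setting is not known. *Asph* may read low for the same reason, as *Clvs1* exons overlap it on the opposite strand.

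Most close relatives of these genes were far lower on the same scale. Beside SERCA2, *Atp2a3* had 3.15 CPM per kb with vehicle and 3.38 with Tributyrin, and *Atp2a1* had 0.149 and 0.172. *Ryr3* stood at 0.132 and 0.150 and *Ryr1* at 0.00881 and 0.0168 on the same scale, against 66.5 and 68.5 for *Ryr2*. *Jph1* had 7.04 and 6.86, and *Jph3* and *Jph4* were below 0.1. The exchangers *Slc8a2* (0.232 and 0.274) and *Slc8a3* (0.0504 and 0.0120) were minor beside *Slc8a1*. CaM kinase II was the exception per kb, since *Camk2g* (10.7 and 11.1) and *Camk2a* (10.8 and 10.2) were above the 8.02 and 7.77 of *Camk2d*, while *Camk2b* was at 2.47 and 2.22. Before division by length *Camk2d* led, with means of 180.5 CPM with vehicle and 174.8 with Tributyrin. In the same units *Camk2a* had 80.3 and 76.0, and *Camk2g* 68.3 and 70.8. The order per kb rests on 22493 bases of exon for *Camk2d*, 7465 for *Camk2a* and 6401 for *Camk2g*. No 50-base stretch of the 10 genes' transcripts occurred in a transcript of these relatives or of another of the 10 (0 for each gene). No read of the full 50 bases could therefore match both exactly, while reads shortened by trimming were not examined. Other genes, on either strand, shared 56.2% of such stretches of *Pln*, 14% of *Asph* (mostly *Clvs1*) and 3.93% of *Atp2a2* (mostly *Gm30970*). For the rest of the 10 the share was at most 3.08%.

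**Figure D5:**
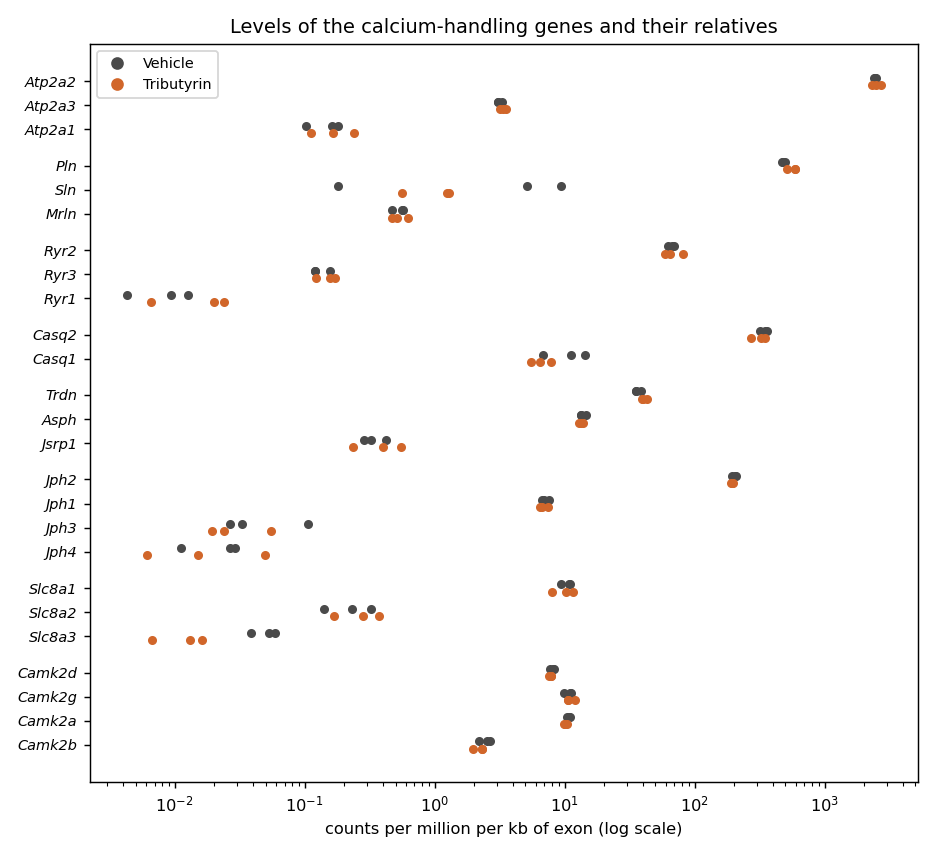
CPM per kb of exon (log axis) of the 10 genes and their relatives in the 6 libraries, 1 point a library. *Atp2a2*, *Ryr2*, *Jph2* and *Slc8a1* stand far above their relatives, *Camk2d*, *Camk2g* and *Camk2a* lie close together with *Camk2b* below them, and *Sln* spreads widest among the Vehicle libraries.

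Around the core set, 84 further genes of calcium cycling were listed in 5 lists. Of these, 3 (*Strit1*, *Arln* and *Erln*) were not matched to an identifier by symbol, 76 passed the filter and 5 were below it (*Ryr1*, *Slc8a3*, *Jph3*, *Jph4* and *Fkbp1b*). At an FDR of 10% by edgeR 0 of them differed, and 2 had an unadjusted p under 0.05, *Sln* lower and *Cacna2d1* higher with Tributyrin. DESeq2 and limma-voom called 0 of them as well. Their median log2 fold change was -0.00497, with 36 positive and 40 negative. *Cacna2d1*, an auxiliary subunit of the L-type channel, had 253.9, 218.1 and 205.0 CPM with vehicle and 280.9, 279.9 and 241.6 with Tributyrin. Those groups overlapped, and the log2 fold change was 0.245 (standard error 0.095, unadjusted p 0.0271, adjusted p 0.999 by edgeR).

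Of 11 tested isoform relatives, 6 were positive, and *Camk2g* and *Camk2a*, the highest per kb, had log2 fold changes of 0.05 and -0.08. Of 15 tested release and luminal partners, 8 were positive, 0 had an unadjusted p under 0.05, and the median was 0.04. The most abundant were *S100a1*, a calcium sensor that binds the ryanodine receptor and the pump, at -0.01 (standard error 0.090), and *Hrc*, the histidine-rich calcium binder inside the store, at 0.10 (standard error 0.063). *Hrc* had 979.3, 946.8 and 946.7 CPM with vehicle and 1043, 1011 and 1032 with Tributyrin, and was the only gene of that list whose groups did not overlap.

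All 22 genes listed under kinases, phosphatases and anchors were tested, with 10 positive and 12 negative. Their median was -0.0044, and 0 had an unadjusted p under 0.05 by edgeR. *Prkaca*, the catalytic subunit of protein kinase A, was at -0.000947 (standard error 0.071), and *Hspb6*, a small heat shock protein that binds phosphatase 1, at -0.13 (standard error 0.101). Among 16 genes of entry and extrusion at the cell membrane the median was -0.02, and *Fxyd1*, which encodes phospholemman, a regulator of sodium transport, was at -0.02 (standard error 0.080). Here *Cacnb2*, higher, and *Stim2*, lower, had groups that did not overlap.

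Among 12 genes of mitochondrial calcium transport the median was -0.01, 5 were positive and 0 had an unadjusted p under 0.05. The outer membrane channels *Vdac1* and *Vdac2* were at 0.11 (standard error 0.068) and 0.02 (standard error 0.075). *Vdac1* had 866.5, 866.2 and 883.7 CPM with vehicle and 950.2, 888.2 and 981.4 with Tributyrin, without overlap. In all, 3 of the 76 genes had non-overlapping groups with higher values and 2 with lower values, beside 4.34% and 4.61% of all genes tested. *Cacnb2* and *Stim2* were named after their values were seen.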

How the data were processed

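Stranded mRNA libraries of heart ventricle were sequenced by the authors as single reads of 50 bases. The authors deposited raw counts per Ensembl gene, whole numbers without normalization. Per the submitters' processing notes, cutadapt 1.13, STAR, HTSeq 0.6.1p1, DESeq2 1.14.1 and genome build mm10 were used. Not given in the sources used here are the STAR version, the annotation release and the strand option. Names came from GENCODE M21 (GRCm38), which matched 54165 identifiers, and 0 lines named no gene. Totals ran from 20369746 to 32734485 counts. For each of the 10 genes counting error was smaller than the spread between mice.

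Samples were grouped by their titles. edgeR 4.0.16 (R 4.3.3) was used with TMM scaling, the filterByExpr filter (minimum count 10, minimum total 15), the quasi-likelihood test without covariates and Benjamini-Hochberg adjustment. Standard errors were the log2 fold change divided by the square root of F. Ratios were tested by exact permutation in scipy 1.17.1. Named genes are the 10 genes, and in each list the 2 highest per kb and any at an unadjusted p under 0.05, with isoform relatives by their levels. Values of some single genes that this rule would name are left out. Other names were chosen after seeing values. The members and lists were chosen with earlier results of these data known. Alternatives were DESeq2 1.42.0, limma-voom 3.58.1, other scalings and filters, mitochondrial genes left out, a replicate block and each library left out. Added after the data were seen were the removal of a trend on exon length and the omission of Vehicle replicates 1 and 2 together. The fit was tested on simulated data. The p-values of edgeR set the difference between the groups against the spread between these libraries, moderated across genes. Those of the ratios come from exchanging the group labels of the libraries.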

Additional observations from a re-analysis of the deposited data

How the results depend on the processing

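The 10 genes stayed at 0 past an FDR of 10% in every setting except edgeR without the low-count filter, which gave 1 (*Casq1*). Under that setting 1 gene of the pathway lists passed (*Sln*), and 0 to 1 with each library left out. Over all genes the count was 11 by DESeq2, 2 with a replicate block, 167 (64 higher, 103 lower) without the filter, and 0 to 3 with each library left out. Deviations from the group means correlated at 0.21, 0.04 and 0.01 between Vehicle and Tributyrin libraries of the same replicate number. Libraries of different numbers were not compared, so these values cannot settle whether the replicates are paired.

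The median of the 10 genes was -0.12 with library size alone, which moved all genes by -0.07, and -0.0573 to 0.0254 with each library left out. *Pln* and *Trdn* stayed positive and *Casq1*, *Casq2* and *Jph2* negative in all 16 alternatives. Of 335 fold changes under alternatives, 306 kept their direction.

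The log2 fold changes that turned did so near 0, apart from *Sln* (2.52 without both Vehicle libraries richest in atrial transcripts), and the cause was not tested. With library size alone *Atp2a2* was at -0.0250, *Ryr2* at -0.0266, *Camk2g* at -0.0193 and *Vdac2* at -0.0590. Without both those Vehicle libraries *Ryr2* was at -0.0142, *Camk2d* at 0.00225, *S100a1* at 0.0345 and *Prkaca* at 0.0454. With the length trend removed *Camk2d* was at 0.0132 and *Asph* at 0.00727. *Prkaca* was at 0.0041 without mitochondrial genes and 0.0029 without the filter. With each library left out the ranges were -0.0116 to 0.101 for *Atp2a2*, -0.0978 to 0.133 for *Ryr2*, -0.196 to 0.0738 for *Slc8a1*, -0.00421 to 0.0854 for *Camk2g*, -0.115 to 0.0426 for *S100a1*, -0.0430 to 0.0406 for *Prkaca*, -0.0934 to 0.0409 for *Fxyd1*, -0.0413 to 0.0736 for *Vdac2* and -0.319 to 0.0783 for the ratio of *Casq2* to *Ryr2*. Among the 10 genes, counting error was largest for *Casq1*.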
